A study of Mus musculus with 9 samples.

Results

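The genes of the constitutive proteasome were followed in the livers of ApoE-/- mice given a high-fat diet with or without an injected antibody. Members were the protein-coding genes of the GENCODE M21 annotation whose symbol begins with Psma, Psmb, Psmc or Psmd and a digit, without the immunoproteasome genes Psmb8, Psmb9 and Psmb10. This gave 37 of the 54532 gene IDs in the table: 8 of the 20S alpha ring, 8 of the 20S beta ring, 6 of the 19S ATPase ring, 11 non-ATPase subunits of the 19S particle, 3 assembly chaperones of the 19S particle, and Psmc3ip. Psmc3ip is named after its binding to Psmc3 and encodes a factor of meiotic recombination, so it is no subunit. Of the 37 genes, 35 passed the filter on low counts and were tested.

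The proteasome degrades proteins that carry chains of ubiquitin. Its 20S core is a barrel of alpha and beta rings, with the proteolytic sites inside the beta rings, and the 19S regulatory particle at its ends binds ubiquitin chains, removes them and unfolds the substrate with a ring of ATPases. Mammalian cells raise the transcription of all subunits together through the factor NRF1 (gene Nfe2l1) when proteasome activity is short, and immune signals exchange the catalytic subunits for those of the immunoproteasome. In liver, the pathway clears misfolded and short-lived proteins, among them enzymes of sterol synthesis and apolipoprotein B.

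Total RNA of 9 livers was sequenced, 3 libraries in each of 3 groups, all labelled ApoE-/- on a C57BL/6 background and male in the series design. The HFD + IgG1 group ate the high-fat diet from 4 weeks of age for 20 weeks, then chow for 1 week, and received 3 mg of recombinant human IgG1 into the peritoneum at 25, 26 and 27 weeks. The HFD + PBS group had the same diet and received PBS at those ages, and the mice of both groups were killed at 29 weeks. The normal diet group ate no high-fat diet, and the sources used here give neither its age at death nor its injections, from which diet cannot be told apart. The antibody's target is not named in the labels. The livers were picked for sequencing by Oil Red O staining and triglyceride content, so the groups hold chosen livers. The libraries are separate livers by their titles, and bulk RNA cannot tell fewer cells of a type from less RNA per cell.

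Library totals ran from 16215194 to 18538463 counts, of which the 37 genes took 36850 to 54444. The label of antibody replicate 5 reads IgG1, while those of replicates 6 and 7 read IgG2 and IgG3, and the series design places all 3 in the IgG1 group. The targeted gene, Apoe, reached 235888 counts in HFD + IgG1 replicate 5, against 225 to 1655 in the other 8. HFD + PBS replicate 6 and normal diet replicate 5, as labelled, had 10970 and 17065 counts of Xist and 0 over 4 Y-linked genes, although the design gives male mice. The other 7 had at most 4 counts of Xist and 2837 to 3385 Y-linked counts. Without these 3 libraries the members' median log2 fold change was -0.26 for HFD + PBS against normal diet (with them, -0.20), 0.15 for HFD + IgG1 against HFD + PBS (with them, 0.16) and -0.15 for HFD + IgG1 against normal diet (with them, -0.05). Hepatocyte markers summed to at least 62900 CPM (counts per 1000000 of the scaled library total) in every library.

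Promoter windows from RefSeq (GRCm38.p6) were found for 30 of the 37 genes. The letters TGACNNNGC, the core of the antioxidant response element that NRF1 and NRF2 bind, were searched on both strands of the 250 bases before each start. They stood in 15.6% of the members' 32 windows (5 of 32, those of Psmb5, Psmb6, Psmc6, Psmd9 and Psmd12) and in 10.2% of all 32851 windows. The letters GGGCGG of the GC box stood in 53.1% of the members' windows (17 of 32) and in 32.7% of all. The CCAAT box stood in 40.6% of the members' windows and in 33.8% of all. The 100 bases before the start are shown for a pair of catalytic subunits with TGACNNNGC and for a pair of 19S genes with GGGCGG, whose levels are described below, each 5′ to 3′ on the gene's strand with the matched letters in capitals. They lie at chr14:54618023-54618122 on the minus strand for Psmb5, and on the plus strand at chr11:70525257-70525356 for Psmb6, chr11:80428515-80428614 for Psmd11 and chr16:20651552-20651651 for Psmd2.
Psmb5: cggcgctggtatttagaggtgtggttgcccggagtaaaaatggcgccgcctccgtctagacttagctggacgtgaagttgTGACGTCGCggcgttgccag
Psmb6: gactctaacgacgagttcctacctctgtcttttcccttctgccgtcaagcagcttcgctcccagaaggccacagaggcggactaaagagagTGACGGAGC
Psmd11: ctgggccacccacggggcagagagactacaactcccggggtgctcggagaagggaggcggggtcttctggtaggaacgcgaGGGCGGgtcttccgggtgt
Psmd2: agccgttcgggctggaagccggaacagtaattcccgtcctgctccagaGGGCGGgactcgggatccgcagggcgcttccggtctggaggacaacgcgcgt
A match of letters is a description of the sequence and was not tied to binding of any factor in these livers.

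Across the 9 livers most subunit genes were expressed at like levels. The median max-to-min fold over the libraries was 1.62 for the 35 tested members, against 2.05 for the 12395 tested genes between the lowest and highest member in mean CPM. The median biological coefficient of variation was 0.199 for the members and 0.234 for those genes. Psma8 alone set the lower end of that range, which takes in 12395 of the 14763 tested genes. Those genes were therefore not matched to the level of most members. The comparison cannot tell whether the members varied less than genes of like level. Per kilobase of exon, Psma6, an alpha ring subunit, was highest at 71.4 ± 8.83 CPM per kb (SD over the 9 libraries), followed by Psmb5 at 65.3 ± 12.6 CPM per kb. The other subunits went down in small steps to Psmd14 at 14.3 ± 2.85 CPM per kb. The chaperones followed, with Psmd10 at 7.29, Psmd5 at 4.72 and Psmd9 at 4.37 CPM per kb. In this order, 30 of the 34 gaps between neighbours were within 1 SD of the higher gene. The length is that of all annotated exons together, so genes with long, rarely used exons come out too low.

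Members known from other tissues were near or at the floor. Psma8, the alpha subunit of the testis proteasome, had 13 to 42 counts in HFD + IgG1 livers, 21 to 34 in HFD + PBS livers and 6 to 15 in normal diet livers, a level of 0.431 CPM per kb. Its log2 fold change of HFD + PBS over normal diet was 1.18, from counts so low that the value ran from 0.66 to 1.70 over the alternative settings. Psmb11, the catalytic subunit of the thymus proteasome, had 0 counts in all 9 libraries, which allows up to 3 counts in each. Psmc3ip had 78 counts in all and did not pass the filter, with 21.2% of its exon length shared with Mlx on the opposite strand.

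HFD + PBS livers were first set against normal diet livers, a comparison in which diet cannot be told apart from age and injections. The subunit genes were mostly lower in HFD + PBS livers, by small amounts, and the non-ATPase genes of the 19S particle were the lowest of the families. No member passed edgeR's quasi-likelihood test with adjustment over the 14763 genes tested, and neither did any other gene (0%). The lowest adjusted p was 0.0627 over all genes and 0.078 over the members. At an unadjusted p under 0.05 stood 7 of the 35 members, all lower, or 20% of them, and 20.8% of all genes. For lower values alone the background was 11.4%. Limma-voom also called 0 members, and DESeq2 called 3 of 35 (8.57%, against 8.03% of all genes), Psmd1, Psmd2 and Psmd11, all lower.

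By direction the members stood further from the background than by calls. The log2 fold change was negative for 31 of 35 members and for 50.3% of all genes, with a median of -0.20 for the members and 0.00 for all genes. The members varied together from liver to liver, as described below, so their signs are not 35 separate observations. The median absolute log2 fold change was 0.21 for the members, under the 0.32 of all genes. Both the median and the count of negative values rested on normal diet replicate 6. In that library 33 of the 35 members were above their mean over the 9 libraries (51.9% of all genes were), and 26 had their highest value. Without that library the median was -0.0041, with 18 members negative and 18 positive. The non-ATPase genes still had a median of -0.28 with 9 of 11 negative. HFD + PBS replicate 3 held the lowest value of 14 members, and without it the median was -0.13.

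Psmd1 encodes Rpn2, a scaffold on which the 19S base is built. It had 94.2, 97.8 and 92.0 CPM in HFD + PBS livers (replicates 3, 4 and 6), against 155, 141 and 143 CPM in normal diet livers (replicates 4, 5 and 6). Every HFD + PBS value lay well below every normal diet value. The log2 fold change was -0.63 (SE 0.13, adjusted p = 0.078 by edgeR), and ran from -0.65 to -0.55 over 18 alternative settings. HFD + IgG1 replicate 6 lies outside the comparison but enters the spread estimated over all groups. Without it Psmd1 was the 1 member of 36 tested that edgeR called, with an adjusted p of 0.0347 (2.78%, against 3.79% of all genes). Of its exon length, 3.47% is shared with Htr2b on the other strand and 4.14% with Gm21972.

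Psmd11 encodes Rpn6, a subunit of the 19S lid that steadies the contact with the 20S core. It had 64.3, 69.2 and 86.3 CPM in HFD + PBS livers, against 121, 95.6 and 123 CPM in normal diet livers. The groups did not overlap, although HFD + PBS replicate 6 came near normal diet replicate 5, which are the libraries with Xist. The log2 fold change was -0.63 (SE 0.17, adjusted p = 0.115 by edgeR). Over 18 alternative settings it ran from -0.84, without the 3 libraries that go against their labels, to -0.52, without HFD + PBS replicate 3.

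Psmd2 encodes Rpn1, which docks shuttle proteins that deliver ubiquitinated substrates. Its levels were 156, 148 and 145 CPM in HFD + PBS livers, against 200, 197 and 226 CPM in normal diet livers. The 2 ranges were apart, with a log2 fold change of -0.47 (SE 0.15, adjusted p = 0.148 by edgeR). Psmd4, which encodes the ubiquitin receptor Rpn10, had 60.8, 70.3 and 71.1 CPM in HFD + PBS livers, against 89.2, 75.9 and 111 CPM in normal diet livers. These ranges were apart as well, by a smaller gap, and the log2 fold change was -0.45 (SE 0.16, adjusted p = 0.178 by edgeR).

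**Figure D1:**
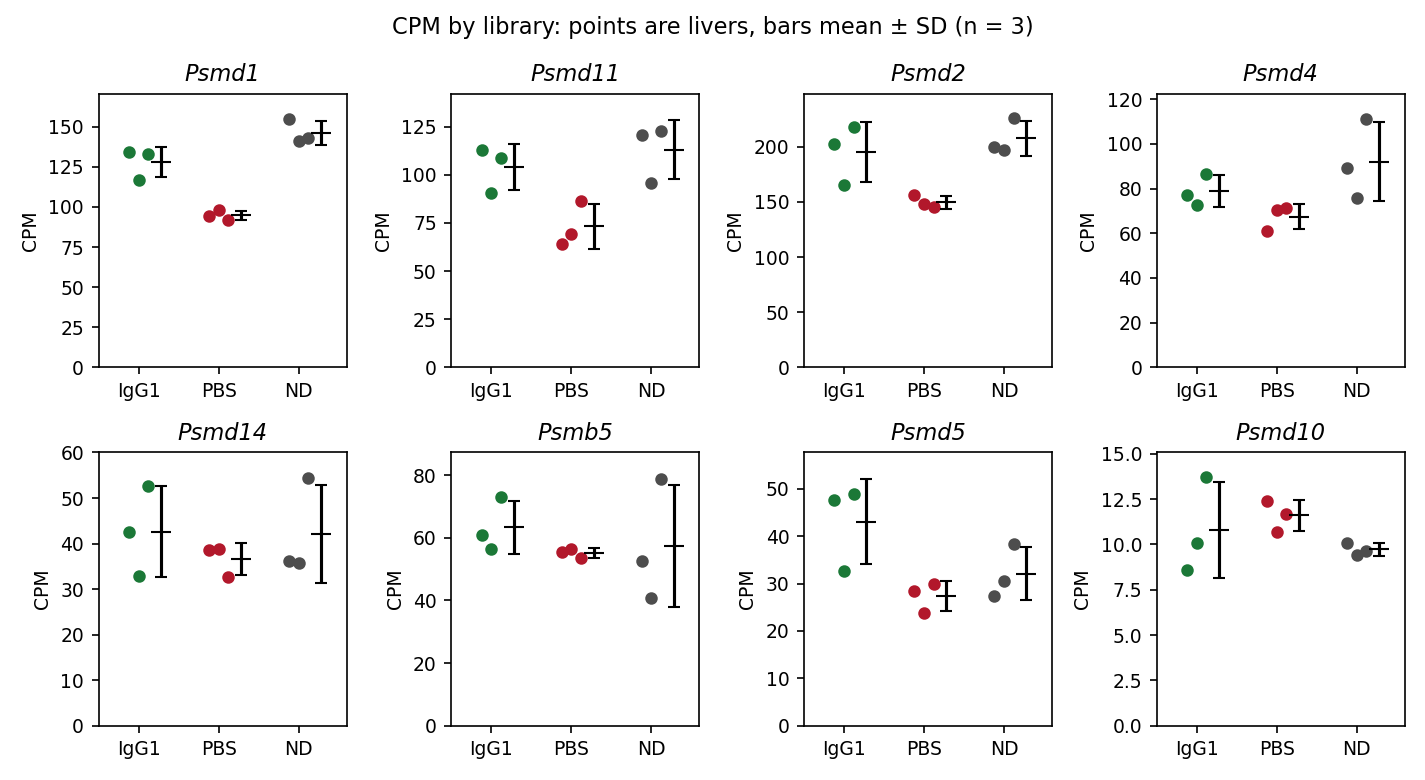
Level of 8 genes in CPM (vertical axis, from 0) in each liver, for HFD + IgG1, HFD + PBS and normal diet (ND), with mean ± SD of the 3 livers beside the points. For Psmd1, Psmd11, Psmd2 and Psmd4 all 3 HFD + PBS livers lie below the other 6, while for Psmd14 all 3 groups overlap.

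The other lid genes were lower by less. Psmd3 averaged 83.8 ± 8.13 CPM in HFD + PBS livers and 112 ± 19.1 CPM in normal diet livers (SD, n = 3 each), and Psmd7 averaged 60.3 ± 8.26 CPM in HFD + PBS livers and 79.4 ± 10.2 CPM in normal diet livers. Their log2 fold changes were -0.43 and -0.40, with edgeR adjusted p of 0.198 and 0.214. Psmd14, the deubiquitinase Rpn11 that cuts ubiquitin chains off the substrate, had 38.5, 38.9 and 32.6 CPM in HFD + PBS livers, against 36.1, 35.8 and 54.5 CPM in normal diet livers, so its groups overlapped. Over the 11 non-ATPase genes, 10 log2 fold changes were negative, 6 had an unadjusted p under 0.05 and 5 showed no overlap of the groups, all lower. Over all genes, 11.4% were lower at an unadjusted p under 0.05 and 15.3% were lower with no overlap. Psmd8 was the exception, at 0.14.

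In the ATPase ring, which unfolds substrates and opens the core, all 6 log2 fold changes were negative with a median of -0.24. Psmc3 had the most negative, -0.35, with an edgeR adjusted p of 0.205 and no overlap. The 20S core stood closer to the normal diet. The median was -0.11 over the alpha ring and -0.12 over the beta ring, and no 20S gene had an unadjusted p under 0.05. Without normal diet replicate 6 these medians were 0.10 and 0.05.

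The catalytic beta subunits overlapped between the groups. Psmb5, the chymotrypsin-like subunit, had 55.6, 56.4 and 53.5 CPM in HFD + PBS livers, against 52.5, 40.8 and 78.9 CPM in normal diet livers, where the HFD + PBS values fell inside the wider normal diet range (log2 fold change -0.06). Psmb6, the caspase-like subunit, averaged 68.4 ± 9.67 CPM in HFD + PBS livers and 85.1 ± 15.6 CPM in normal diet livers. Psmb7, the trypsin-like subunit, averaged 59.7 ± 4.61 CPM in HFD + PBS livers and 74.7 ± 22.1 CPM in normal diet livers (SD, n = 3 each). Both had a log2 fold change of -0.32, which without normal diet replicate 6 was -0.16 for Psmb6 and -0.05 for Psmb7. Of Psmb7's exon length 11.8% is shared with Nek6 on the other strand.

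Counted without a test, 8 of the 35 members had groups that did not overlap (22.9%, against 28.3% of all genes). Lower in HFD + PBS were 6 members (17.1%, with a background of 15.3%), Psmc3, Psmd1, Psmd2, Psmd3, Psmd4 and Psmd11. Higher were Psma8 and Psmd10 (5.71%, with a background of 13%). The members' share of lower genes was thus near that of all genes.

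**Figure D2:**
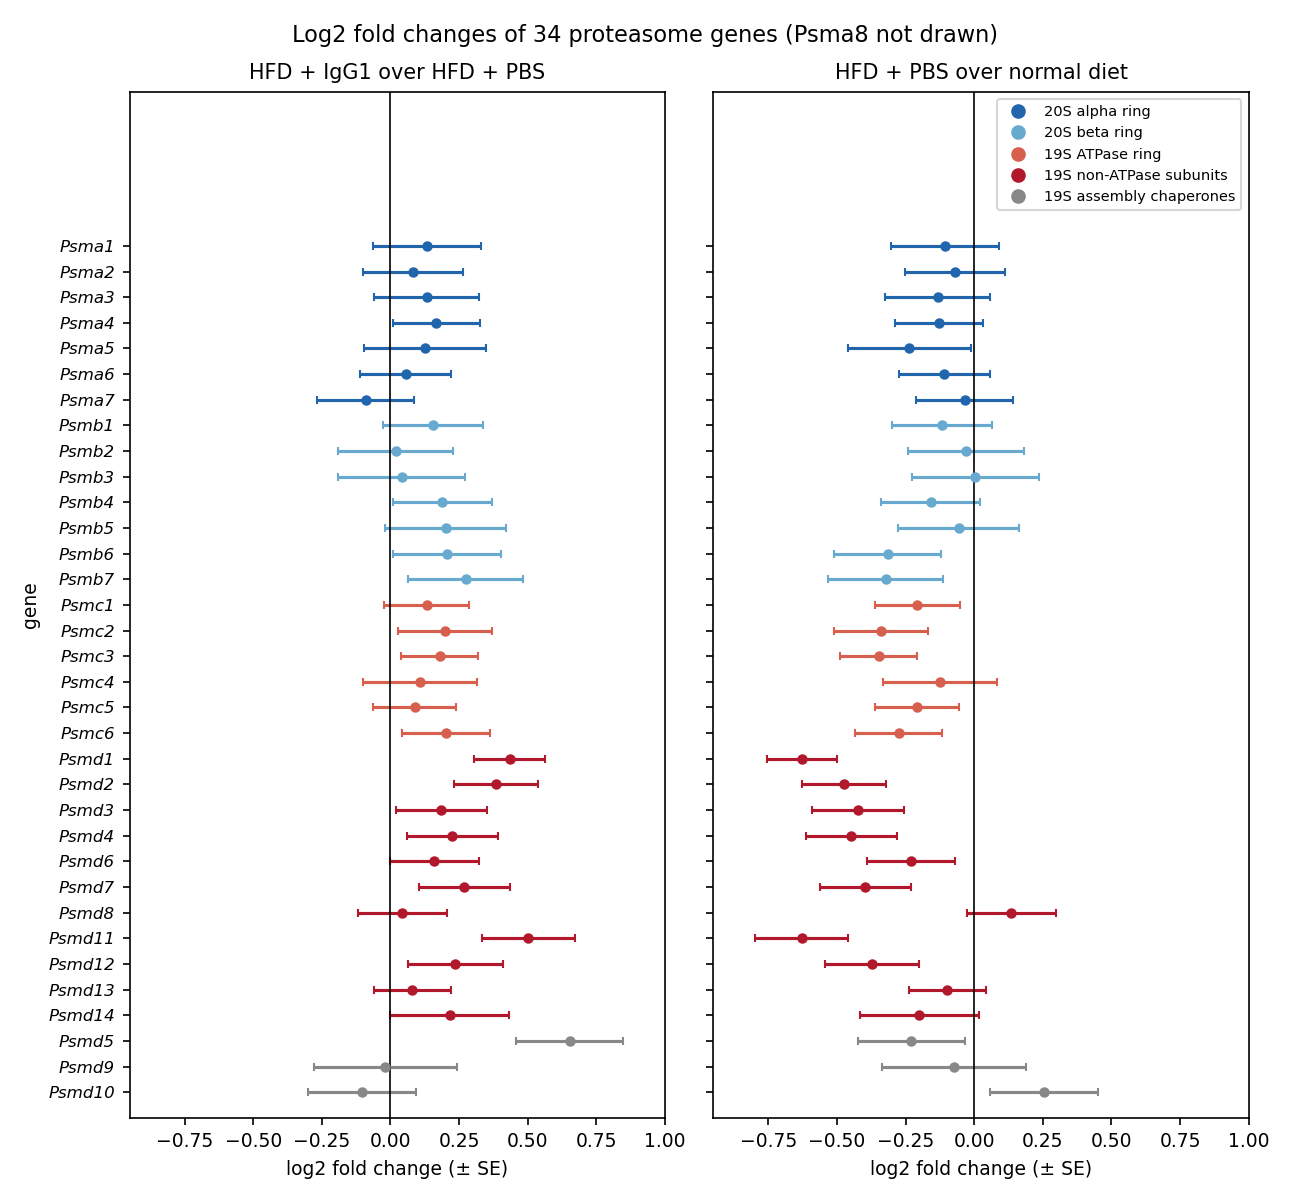
Log2 fold change with its SE (horizontal axis) of 34 genes, for HFD + IgG1 over HFD + PBS on the left and HFD + PBS over normal diet on the right, coloured by family. On the right nearly all points lie left of 0, with Psmd1 and Psmd11 at -0.63, and on the left nearly all lie right of 0, with Psmd5 at 0.65.

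HFD + IgG1 livers were next set against HFD + PBS livers, which addressed the effect of the antibody given after the high-fat diet had ended. Because this comparison shares the 3 HFD + PBS libraries with the first, values opposite in sign to the first are no separate evidence. Most subunit genes were slightly higher in HFD + IgG1 livers, and again the non-ATPase genes stood furthest from 0. EdgeR called 0 of the 35 members and none of the 14763 genes (0%), and the lowest adjusted p was 0.14 both over all genes and over the members. At an unadjusted p under 0.05 stood 4 members, Psmd1, Psmd2, Psmd5 and Psmd11, all higher. That is 11.4% of the members, against 24.2% of all genes and 12.6% for higher values alone. Limma-voom called 0 members, and DESeq2 called 1 of 35, Psmd1 (2.86%, against 8.49% of all genes).

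The log2 fold change was positive for 32 of 35 members and for 52.8% of all genes, with a median of 0.16 for the members and 0.04 for all genes. Here too the members' signs are not separate observations. In HFD + IgG1 replicate 7, 34 of the 35 members were above their 9-library mean (53.1% of all genes were). In HFD + IgG1 replicate 6 that held for 1 (49.9% of all genes). Without replicate 7 the median was 0.0013, with 20 members positive and 16 negative. Without replicate 6 it was 0.25, and without HFD + PBS replicate 3 it was 0.09. With only replicate 5, the library whose label reads IgG1, it was 0.12.

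Psmd5, a chaperone that holds the ATPases during assembly of the 19S base, had 47.7, 32.7 and 48.8 CPM in HFD + IgG1 livers (replicates 5, 6 and 7), against 28.5, 23.8 and 29.8 CPM in HFD + PBS livers. All 3 antibody values were above all HFD + PBS values, with replicate 6 closest to them. The log2 fold change was 0.65 (SE 0.20, adjusted p = 0.14 by edgeR), and it ran from 0.38 to 0.82 over 19 alternative settings. Without HFD + IgG1 replicate 6 edgeR called 2 of 36 members, Psmd5 and Psmd1, with adjusted p of 0.0176 and 0.039 (5.56%, against 15.5% of all genes). In normal diet livers Psmd5 had 27.4, 30.6 and 38.3 CPM, so that the log2 fold change of HFD + IgG1 over normal diet was 0.42 (adjusted p = 0.708 by edgeR).

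Psmd11 had 113, 90.4 and 109 CPM in HFD + IgG1 livers, against the 64.3, 69.2 and 86.3 CPM of HFD + PBS livers given above, a log2 fold change of 0.50 (SE 0.17, adjusted p = 0.143 by edgeR). Psmd1 had 134, 117 and 133 CPM in HFD + IgG1 livers, clear of the 92.0 to 97.8 CPM of HFD + PBS livers. Its log2 fold change was 0.44 (SE 0.13, adjusted p = 0.14 by edgeR), and positive in 19 of 19 alternative settings. Psmd2 had 203, 165 and 218 CPM in HFD + IgG1 livers, against at most 156 CPM in HFD + PBS livers, at a log2 fold change of 0.39 (SE 0.15, adjusted p = 0.173 by edgeR). In each of these genes replicate 6 was the lowest antibody library.

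The family medians were small. They were 0.23 over the non-ATPase genes (11 of 11 positive), 0.16 over the ATPase ring (6 of 6), 0.19 over the beta ring (7 of 7) and 0.10 over the alpha ring (7 of 8). These sign counts rested on HFD + IgG1 replicate 7, without which 20 members were positive and 16 negative. Each of these families then held genes that turned negative, among them Psmd8 (-0.13), Psmc5 (-0.05), Psmb3 (-0.22) and Psma3 (-0.09). Psmb5 averaged 63.4 ± 8.5 CPM in HFD + IgG1 livers and 55.2 ± 1.52 CPM in HFD + PBS livers, and Psmb6 averaged 79.0 ± 15.5 CPM in HFD + IgG1 livers and 68.4 ± 9.67 CPM in HFD + PBS livers (SD, n = 3 each). Psmb7 averaged 72.3 ± 11.7 CPM in HFD + IgG1 livers and 59.7 ± 4.61 CPM in HFD + PBS livers. None of these catalytic genes had an unadjusted p under 0.05. Groups did not overlap for 6 members, all higher (17.1%, against 26.5% of all genes in either direction and 15.3% for higher ones). They were Psmd1, Psmd2, Psmd4, Psmd5, Psmd11 and, by a gap of 56.5 CPM in an HFD + IgG1 liver against 56.4 CPM in an HFD + PBS liver, Psmb5.

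The remaining chaperones showed no such separation of HFD + IgG1 from HFD + PBS. Psmd9 had 31.3, 24.7 and 36.5 CPM in HFD + IgG1 livers, 20.4, 40.1 and 33.2 CPM in HFD + PBS livers and 32.8, 25.8 and 40.0 CPM in normal diet livers, so its groups overlapped throughout. Of its exon length 25.5% is shared with Gm26745 on the other strand. Psmd10 (gankyrin, also known to bind the retinoblastoma protein) had 8.56, 10.1 and 13.7 CPM in HFD + IgG1 livers, 12.4, 10.7 and 11.7 CPM in HFD + PBS livers and 10.1, 9.41 and 9.65 CPM in normal diet livers. Its HFD + PBS values were above those of normal diet, by 0.25 on the log2 scale (adjusted p = 0.487 by edgeR), with no overlap.

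The third comparison set HFD + IgG1 against normal diet and shares libraries with each of the others. EdgeR called 0 members and 0 genes (0%), and the lowest adjusted p over the members was 0.708. No member had an unadjusted p under 0.05, against 7.04% of all genes, and neither limma-voom (0 genes) nor DESeq2 (0.834% of all genes) called a member. The median log2 fold change was -0.05, with 23 of 35 negative (49.6% of all genes were). Its sign turned when HFD + IgG1 replicate 6 (0.06) or normal diet replicate 6 (0.13) was left out, and it was -0.17 without HFD + IgG1 replicate 7 and -0.14 without normal diet replicate 5. Psmd1 was the 1 member whose groups did not overlap (2.86%, against 11.9% of all genes in either direction and 6.41% for lower ones), at -0.19 (SE 0.13, adjusted p = 0.773 by edgeR).

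Over all 9 libraries, 4 members had every HFD + PBS value below all other 6: Psmd1, Psmd2, Psmd4 and Psmd11. That is 11.4% of the 35, against 8.47% of all genes tested. No member had every HFD + PBS value above the other 6, against 6.09% of all genes. The 4 are all non-ATPase genes, encoding the pair of base scaffolds, a ubiquitin receptor and a lid subunit.

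**Figure D3:**
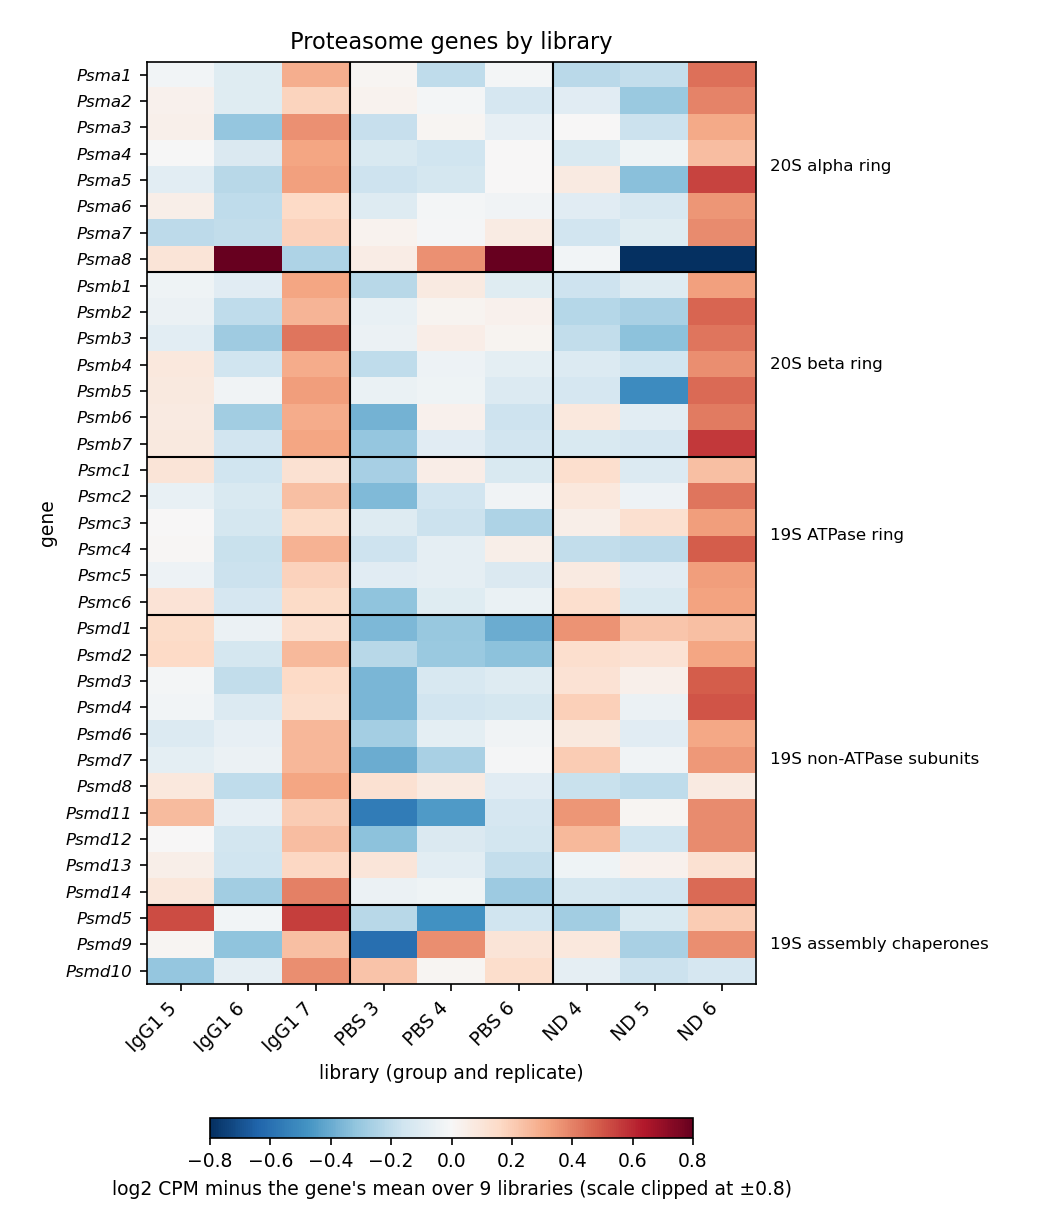
Log2 CPM of the 35 tested genes minus the gene's mean over the 9 libraries (colour, scale clipped at ±0.8), with libraries across and genes down, grouped by family. The columns of HFD + IgG1 replicate 7 and normal diet replicate 6 are red for nearly all genes, and the HFD + PBS columns are bluest among the 19S non-ATPase genes.

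The genes varied together from liver to liver. Over the 9 libraries the 595 pairs of members had a median Pearson correlation of log2 CPM of 0.70, and 545 pairs were above 0. These values share library, depth and scaling, and no correlation was computed for pairs of other genes. Psmb4, a beta subunit, followed the others most closely (median r 0.84), Psmd1 less so (0.41), and Psmd10 (0.07) and Psma8 (-0.36) did not follow them. Co-variation was seen within groups: the members' median deviation was 0.26 and -0.14 in HFD + IgG1 replicates 7 and 6. It was 0.37 and -0.12 in normal diet replicates 6 and 5. With group means taken out, the median r was 0.87 for Psmb4, 0.29 for Psmd1, 0.34 for Psmd10 and -0.34 for Psma8.

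Because the 19S genes stood further from 0 than the 20S genes, the counts were summed by particle. The 20S genes summed to 1020, 910 and 1250 CPM in HFD + IgG1 livers, 932, 997 and 984 CPM in HFD + PBS livers and 950, 903 and 1340 CPM in normal diet livers, with full overlap. The 19S subunit genes summed to 1520, 1330 and 1690 CPM in HFD + IgG1 livers, 1240, 1310 and 1310 CPM in HFD + PBS livers and 1590, 1450 and 1840 CPM in normal diet livers. All 3 HFD + PBS sums lay below the other 6, at the closest 1310 against 1330 CPM. The sums hold the same genes whose values led to them, so they are no separate evidence.

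The ratio of summed 20S to summed 19S counts was 0.698 ± 0.0346 in HFD + IgG1 livers, 0.7545 ± 0.00433 in HFD + PBS livers and 0.6495 ± 0.0699 in normal diet livers (SD, n = 3 each). The HFD + PBS libraries were nearly alike, from 0.7505 to 0.7591, and above the highest value of either other group, 0.7374 in HFD + IgG1 and 0.7288 in normal diet. No test was made of this score, which was also chosen after the gene values were seen. With Psmd1, Psmd2 and Psmd11 left out of the sum, a choice made after their values were seen, the ratio was 0.9495 to 1.0133 in HFD + IgG1 livers, 0.9959 to 1.0108 in HFD + PBS livers and 0.8507 to 0.9955 in normal diet livers. HFD + IgG1 and HFD + PBS then overlapped, and the gap to normal diet replicate 6 all but closed.

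**Figure D4:**
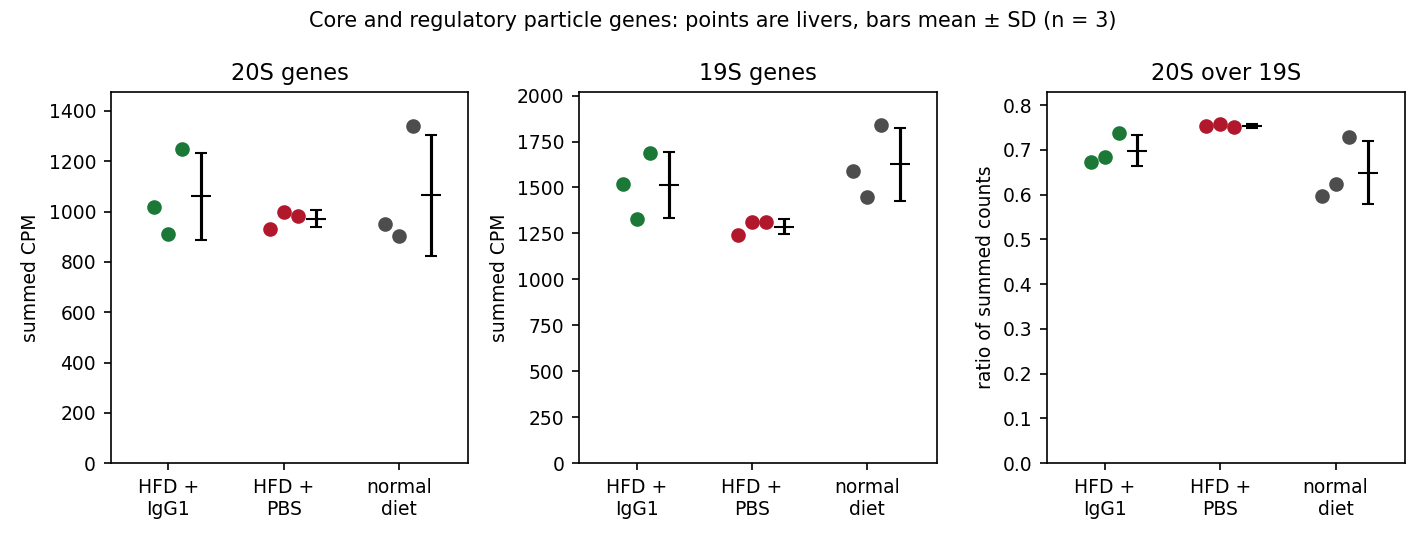
Summed CPM of the 20S genes and of the 19S subunit genes, and the ratio of their summed counts (vertical axes, from 0), in each liver with mean ± SD of 3 livers. The 20S sums of the 3 groups overlap, and the ratio of all 3 HFD + PBS livers is at least 0.7505, above the other 6.

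Longer genes tended to have the more negative values in HFD + PBS against normal diet. Over the 35 members, Spearman's rho between exon length and log2 fold change of HFD + PBS over normal diet was -0.33, and over the 14749 tested genes with a length it was -0.14. For HFD + IgG1 over HFD + PBS it was 0.33 over the members and 0.02 over all genes. For HFD + IgG1 over normal diet it was -0.20 over the members and -0.16 over all genes. These are correlations across genes of the same libraries, with no test, and the part of length in the values of the long genes Psmd1 (7265 bases of exon), Psmd11 (6383 bases) and Psmd2 (4038 bases) was not tested.

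The immunoproteasome subunits, which replace Psmb6, Psmb7 and Psmb5 in immune cells and under interferon, ran opposite in sign to the constitutive ones. The log2 fold changes of HFD + PBS over normal diet were 0.67 for Psmb10, 0.81 for Psmb9 and 0.46 for Psmb8, and those of HFD + IgG1 over HFD + PBS were -0.52 for Psmb10, -0.93 for Psmb9 and -0.64 for Psmb8. None passed edgeR's test, with adjusted p of at least 0.158. Per kilobase, Psmb10 over Psmb7 was 0.708, 0.998 and 0.669 in HFD + IgG1 livers, 1.9, 1.12 and 1.07 in HFD + PBS livers and 0.602, 1.02 and 0.504 in normal diet livers. The HFD + PBS values were the highest 3, by a small margin but for replicate 3. Psmb9 over Psmb6 was 0.335 in HFD + PBS replicate 3 and 0.0489 to 0.14 in the other 8 libraries, where groups overlapped.

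**Figure D5:**
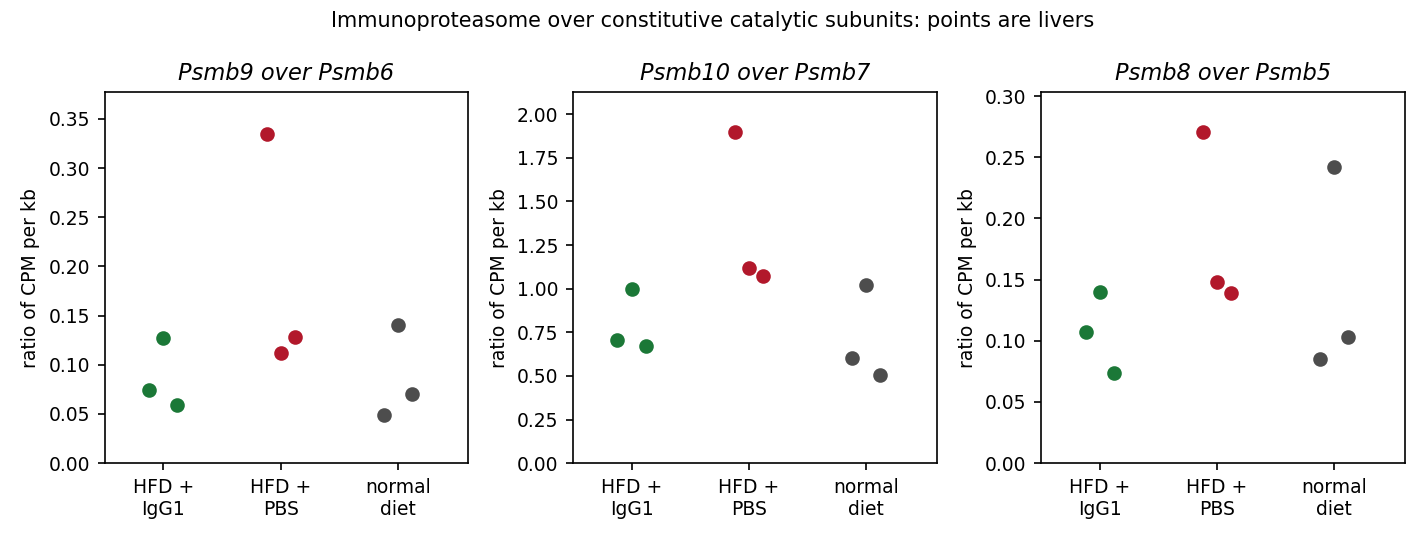
Ratio of each immunoproteasome gene to the constitutive catalytic gene it replaces, both as CPM per kb of exon (vertical axis, from 0), in each liver. HFD + PBS replicate 3 is the highest library in all 3 panels, and the other livers overlap except for Psmb10 over Psmb7.

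Cell type markers differed between the same groups, without passing the test. Summed hepatocyte markers were 106000 to 184000 CPM in HFD + IgG1 livers, 62900 to 119000 CPM in HFD + PBS livers and 96900 to 104000 CPM in normal diet livers. Alb alone, at 37900 to 138000 CPM, made up most of each sum. The highest sum was in HFD + IgG1 replicate 5, the library with high Apoe counts. The median log2 fold change of the hepatocyte markers was 0.55 for HFD + IgG1 over HFD + PBS (7 of 9 positive) and -0.17 for HFD + PBS over normal diet (7 of 9 negative). These are the same signs as those of the proteasome genes. Summed neutrophil markers were 13.5 to 613 CPM in HFD + IgG1 livers, 445 to 3960 CPM in HFD + PBS livers and 36.4 to 186 CPM in normal diet livers, with 8 of 8 genes higher in HFD + PBS than in normal diet. Summed macrophage markers were 862 to 3050 CPM in HFD + IgG1 livers, 2780 to 3990 CPM in HFD + PBS livers and 2020 to 2580 CPM in normal diet livers, with 10 of 10 higher. The neutrophil and macrophage sums were highest in HFD + PBS replicate 3, where the hepatocyte sum was lowest. Cell cycle genes summed to 55.1 to 102 CPM in HFD + IgG1 livers, 72.2 to 396 CPM in HFD + PBS livers and 62 to 64.8 CPM in normal diet livers, with 12 of 12 higher. Skeletal muscle markers summed to at most 1.99 CPM and pancreatic acinar markers to at most 21.8 CPM in any library, with 2 of 6 and 4 of 8 genes at 0 counts throughout. None of these lists had a gene that passed edgeR's test, and their part in the values of the proteasome genes was not tested.

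Genes that act with the proteasome were read from lists, in which no gene passed edgeR's test in any comparison. The list of NRF1, the factor that raises proteasome genes, together with the proteins that release, cut or turn it over and the related factor NRF2 (gene Nfe2l2), had a median log2 fold change of -0.49 for HFD + PBS over normal diet (5 of 7 negative, 4 with no overlap, against 28.3% of all genes) and of 0.42 for HFD + IgG1 over HFD + PBS (6 of 7 positive). Nfe2l1 itself had 168, 148 and 149 CPM in HFD + IgG1 livers, 124, 125 and 124 CPM in HFD + PBS livers and 230, 215 and 165 CPM in normal diet livers. The HFD + PBS livers were alike and below all others. The log2 fold change of HFD + PBS over normal diet was -0.71 (SE 0.16, adjusted p = 0.0786 by edgeR), and that of HFD + IgG1 over HFD + PBS was 0.32 (SE 0.16, adjusted p = 0.245 by edgeR).

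Ddi2, the protease that cuts NRF1, had a log2 fold change of -0.73 for HFD + PBS over normal diet and 0.42 for HFD + IgG1 over HFD + PBS. Vcp, the ATPase that draws NRF1 out of the endoplasmic reticulum and hands ubiquitinated proteins to the proteasome, had 328, 273 and 362 CPM in HFD + IgG1 livers, 246, 223 and 223 CPM in HFD + PBS livers and 351, 305 and 352 CPM in normal diet livers. No HFD + PBS value reached those of the other groups, and the log2 fold changes were -0.54 for HFD + PBS over normal diet and 0.48 for HFD + IgG1 over HFD + PBS, with edgeR adjusted p of 0.132 and 0.145.

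The deubiquitinases, ligases and shuttles that dock on the 19S particle had a negative value in 8 of 8 genes for HFD + PBS over normal diet (median -0.33, 4 with no overlap, against 28.3% of all genes) and a positive one in 8 of 8 for HFD + IgG1 over HFD + PBS (median 0.37, 3 with no overlap, against 26.5% of all genes). Rad23b, a shuttle that carries ubiquitinated proteins, had 216, 158 and 208 CPM in HFD + IgG1 livers, 130, 142 and 149 CPM in HFD + PBS livers and 226, 198 and 200 CPM in normal diet livers. All HFD + PBS values were again the lowest, at log2 fold changes of -0.57 for HFD + PBS over normal diet (SE 0.16, adjusted p = 0.122 by edgeR) and 0.47 for HFD + IgG1 over HFD + PBS (SE 0.16, adjusted p = 0.146 by edgeR). The shuttles Ubqln4 and Ubqln1 had -0.45 and -0.43 for HFD + PBS over normal diet, and 0.54 and 0.46 for HFD + IgG1 over HFD + PBS.

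Among the activators and the inhibitor of the 20S core, Psme4, which encodes the activator PA200, stood apart. Its log2 fold change was -0.57 for HFD + PBS over normal diet (SE 0.16, adjusted p = 0.122 by edgeR) and 0.46 for HFD + IgG1 over HFD + PBS (SE 0.16, adjusted p = 0.15 by edgeR), while the list's medians in these comparisons were -0.08 and 0.12 over 5 genes. Ubiquitin and E1 genes had medians of -0.04 (3 negative) and 0.41 (4 positive and 2 negative) over 6 genes. Uba6, a second ubiquitin-activating enzyme, was at 0.62 in HFD + IgG1 over HFD + PBS. The ubiquitin gene Ubb went the other way, at 344 ± 61.7 CPM in HFD + IgG1 livers and 467 ± 107 CPM in HFD + PBS livers (SD, n = 3 each). The other base and assembly factors had medians of -0.02 and 0.14 over 7 genes. Sem1, a small subunit of the lid whose symbol the naming rule does not take, had a value of 0.58 for HFD + PBS over normal diet (SE 0.23, adjusted p = 0.205 by edgeR), opposite in sign to 10 of the 11 non-ATPase members.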

How the data were processed

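The deposited values are whole-number raw counts per Ensembl gene ID for 9 liver libraries, as the authors made them. Bowtie 0.12.2 and the build mm10 are named, without a role, per the submitters' processing notes. Not given in the sources used here are the counting program, its annotation and its use of strand. Reads of genes that overlap a member cannot be told apart from its own. Symbols came from GENCODE M21 (54409 of 54532 IDs). Counts were tested with edgeR 4.0.16 (R 4.3.3), using TMM scaling, filterByExpr (minimum count 10, minimum total 15), a mean per group over all 9 libraries, robust glmQLFit and two-sided glmQLFTest, with Benjamini-Hochberg adjustment over 14763 genes and a threshold of 0.05. The common dispersion was 0.101. CPM are scaled by library total and TMM factor. The SE is derived from the fold change and edgeR's F statistic. The fit was tested on simulated counts. P-values set a group difference against the spread between these livers, estimated over all 9 libraries, and count limits cover counting error only.

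Genes named are the 5 members with the smallest p in each comparison, Psmb5, Psmb6, Psmb7, Psmd4, Psmd11, Psmd14, the members of highest and lowest level, the untested ones, the chaperones and up to 3 genes a list. Psmb4, Psmc3 and Psmd8, and others outside this rule, were named after their values were seen. Members, lists and tests were chosen with earlier results of these data known. Alternatives were DESeq2 1.42.0, limma-voom (limma 3.58.1), other scalings, filters and library subsets, and the replicate number as a block.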

Additional observations from a re-analysis of the deposited data

How the results depend on the processing

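The members' median log2 fold change kept its sign in all 18 alternatives for HFD + PBS against normal diet (-0.26 to -0.0041). It did so in all 19 for HFD + IgG1 against HFD + PBS (0.0013 to 0.25), and was positive in 2 of 19 for HFD + IgG1 against normal diet (-0.17 to 0.13). The -0.0041 came without normal diet replicate 6, with 18 members higher and 18 lower. The 0.0013 came without HFD + IgG1 replicate 7, with 20 higher and 16 lower. In each of these comparisons the shift thus all but vanished when a single library was left out. Counts of called genes moved more, and the cause was not tested. DESeq2 called 1184 genes for HFD + PBS against normal diet, 1251 for HFD + IgG1 against HFD + PBS and 111 for HFD + IgG1 against normal diet, with 3, 1 and 0 members. With no filter on low counts edgeR called 274, 57 and 6 genes, and with only the 6 libraries compared 184, 0 and 3, in each case with 0 members. Dropping the 3 libraries that go against their labels gave counts of 2, 0 and 0. With only the antibody library labelled IgG1 they were 556 for HFD + IgG1 against HFD + PBS and 3 for HFD + IgG1 against normal diet, from a group of 1 library assumed to vary like the others. Leaving out each library in turn gave 0 to 576, 0 to 2356 and 0 to 6 genes, and 0 to 1, 0 to 2 and 0 members, each highest count coming without HFD + IgG1 replicate 6. Without HFD + PBS replicate 6 the counts were 14, 0 and 4. RLE and upper-quartile factors, a filter of 1 CPM in 3 libraries and limma-voom called 0 in all comparisons. Upper-quartile factors gave a member median of 0.08 for HFD + IgG1 against HFD + PBS while that of all genes became -0.04. With the replicate number as a block edgeR called 0 genes and 0 members in each, with member medians of -0.16, 0.02 and -0.17. The numbers are not shown to pair the livers: over the 5 pairs of libraries with the same number, the correlation of deviations from the group mean was -0.494 to 0.007. Of the single-gene values of named members under these settings, 833 stayed on their side of the threshold and 7 passed it. Depth allowed no reading of Psma8, Psmb11 or Psmc3ip, and with 3 livers a group the spread between livers set the limit elsewhere.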
